A study of Mus musculus with 3 samples.

Results

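Tip-like endothelial cells (ECs) were 201 of the 29084 cells that passed the limits on depth and mitochondrial RNA in 3 single-cell libraries of the mouse retina at postnatal day 6. Tip cells lead a growing capillary sprout: they send out filopodia toward vascular endothelial growth factor (VEGF), and they hold back neighbouring stalk cells through the Notch ligand Dll4. In the retina at this age, sprouts spread over a template of astrocytes at the front of the vascular plexus, and the vessels behind the front take up arterial, venous and blood-retina barrier features. The barrier needs the Norrin pathway, in which the ligand Norrin acts through the receptor Fzd4, the co-receptor Lrp5 and the tetraspanin Tspan12 to stabilise beta-catenin, the product of *Ctnnb1*.

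The cells were chosen on their own counts. An EC had a sum of at least 10 UMIs per 10000 over *Pecam1*, *Cdh5*, *Egfl7*, *Esam*, *Tie1*, *Eng*, *Ecscr* and *Flt1*, with at least 3 of the 8 detected, and under 5 per 10000 over the microglial genes *C1qa*, *Cx3cr1* and *Csf1r* (UMIs, the unique molecular identifiers, count captured transcripts). A tip-like cell was an EC with at least 5 per 10000 over *Esm1*, *Apln*, *Angpt2*, *Kcne3* and *Plaur*, with at least 2 of the 5 detected, and under 3 per 10000 over the mitotic genes *Top2a*, *Mki67* and *Cenpf*. The remaining ECs under that mitotic limit, 2179 in all, are called other ECs here and served as the comparison within each library. The gates are cuts through a range of scores, so tip-like names a range of cells and not a separate class.

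Of the 3 libraries, 1 came from wild-type mice (WT), 1 from mice with a knockout of *Tspan12* (*Tspan12* KO), which lack the gene in every cell, and 1 from *Ctnnb1* flox mice with *Pdgfb*-iCreER given tamoxifen daily for 3 days from postnatal day 1 (*Ctnnb1* cKO), which lose beta-catenin in cells that express the *Pdgfb*-driven recombinase. Whether the other mice received tamoxifen is not given in the sources used here. All mice were C57BL/6, each library pooled retinas of several mice, and the WT mice were from other litters than the knockout mice. Cells had been enriched with magnetic beads against CD31, an endothelial surface protein, and CD11b, a microglial one. With 1 library per genotype, no difference between libraries has a replicate check, genotype and library cannot be told apart, and every interval below is a 95% interval that covers counting error only.

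The WT, *Tspan12* KO and *Ctnnb1* cKO libraries held 9951, 14426 and 9151 barcodes with 92684519, 137114957 and 37008362 UMIs. Pairs of libraries shared 21 to 37 barcodes, and 1 tip-like cell of the *Ctnnb1* cKO library carried a barcode that was also present in another library. Deleted alleles can keep the 3′ end that these libraries read, so the targeted genes did not serve as a check of the labels. *Tspan12* stood at 84.3, 64.9 and 35.3 CPM (UMIs per 1000000 of the sum) in the summed tip-like cells of the 3 libraries, and *Ctnnb1* at 539, 596 and 461 CPM. The lowest *Tspan12* level was thus not in the library labelled *Tspan12* KO.

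The WT library held 38 tip-like cells among 396 ECs within the mitotic limit, a share of 9.60% (6.88 to 12.9%). In the *Tspan12* KO library 29 of 287 such ECs were tip-like, or 10.1% (6.87 to 14.2%), and in the *Ctnnb1* cKO library 134 of 1697, or 7.90% (6.66 to 9.28%). These 3 intervals overlapped. The microglial limit kept 756 cells with an endothelial score out of the *Ctnnb1* cKO share, 39 of which passed the tip gate, against 7 cells left out in each of the other libraries. Depth differed between the 2 kinds of ECs: the tip-like cells had median totals of 24888, 16764 and 5606 UMIs, above the 13760.5, 14336.5 and 3770 UMIs of other ECs in the same libraries. Cells were also thinned at random to 2000 UMIs each, which left out 7, 21 and 325 ECs that were shallower. Over 10 draws, a number chosen after seeing the data, the median shares were 6.43%, 5.64% and 5.53% in the order WT, *Tspan12* KO, *Ctnnb1* cKO. The draws ranged from 4.05 to 8.38%, from 4.60 to 7.98% and from 4.91 to 6.42%, so an order of the 3 shares was not detectable at this depth.

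The summed score of the 5 markers in tip-like cells had a median of 9.57 per 10000 for WT, 9.03 for *Tspan12* KO and 9.40 for *Ctnnb1* cKO, and its highest values were 57.5, 46.8 and 33.9. Cells just inside the gate scored 5.17, 5.14 and 5.05, and those just outside it 4.99, 4.96 and 4.94. From 4 to 6 per 10000 there were 19, 28 and 93 ECs, and 4, 10 and 80 ECs reached the score on 1 marker alone and were left out. In the WT library 16 of the 38 tip-like cells carried all 5 markers, against 9 of 29 and 20 of 134 in the knockout libraries, whose tip-like cells had lower median depths.

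*Esm1*, which encodes the secreted proteoglycan endocan, stood at 411 CPM (375 to 449) in WT tip-like cells, at 213 CPM (182 to 249) in the *Tspan12* KO library and at 134 CPM (112 to 159) in the *Ctnnb1* cKO library. Other ECs had 7.98, 16.3 and 15.6 CPM. *Apln*, the ligand of the apelin receptor, was present at 635, 519 and 417 CPM, and *Angpt2*, an antagonist ligand of the receptor Tek, at 239, 117 and 219 CPM. These high values describe how the cells were picked and are no result. The levels of *Kcne3*, a potassium channel subunit, were 214, 160 and 236 CPM, and those of *Plaur*, the urokinase receptor, 135, 45.0 and 87.2 CPM. *Plaur* had the smallest distance to other ECs of the 5, which held 36.4 CPM of it in WT and 22.9 CPM in *Tspan12* KO.

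To see a marker in cells that its own counts did not choose, each was read in ECs picked on the other 4. *Esm1* then had a log2 ratio to the remaining ECs of 5.01 (4.71 to 5.32) in WT, and the knockout libraries had 3.80 (3.41 to 4.19) for *Tspan12* KO and 2.25 (1.85 to 2.64) for *Ctnnb1* cKO. *Kcne3* read in this way had ratios of 4.40, 3.44 and 3.27, *Angpt2* of 3.94 in WT and 3.60 in *Tspan12* KO with an interval of 2.67 to 3.31 in *Ctnnb1* cKO, and *Apln* of 3.16, 2.41 and 2.23. *Plaur* again came last, with 1.77 (1.47 to 2.07), 0.87 (0.16 to 1.52) and 1.72 (1.26 to 2.16). All 15 intervals lay above 0, so in every library each marker was higher in the summed ECs picked on the other 4 than in the remaining ECs. These ratios of sums do not count cells that hold the markers together. *Esm1* had a UMI in 18 of the 32 WT cells picked on the other 4. In *Tspan12* KO it had one in 15 of 25 such cells and in *Ctnnb1* cKO in 46 of 112.

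The markers were also read in cells that should lack them. After thinning, *Esm1* had a UMI in 3.86%, 5.26% and 4.52% of ECs, and in 0.143%, 0.0776% and 0.25% of cells gated as rods. The median depths before thinning were 14303, 14444 and 3892 UMIs in ECs and 4469, 6048.5 and 4585 UMIs in rods. *Angpt2* had a UMI in 4.11%, 4.89% and 5.76% of thinned ECs and in 1.60%, 1.05% and 0.50% of thinned rods, so it was also seen in cells that should lack it. *Plaur* had a UMI in 12.7%, 10.5% and 13.0% of thinned microglia and in 7.97%, 5.26% and 5.54% of thinned ECs, so it did not set ECs apart from microglia.

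**Figure D1:**
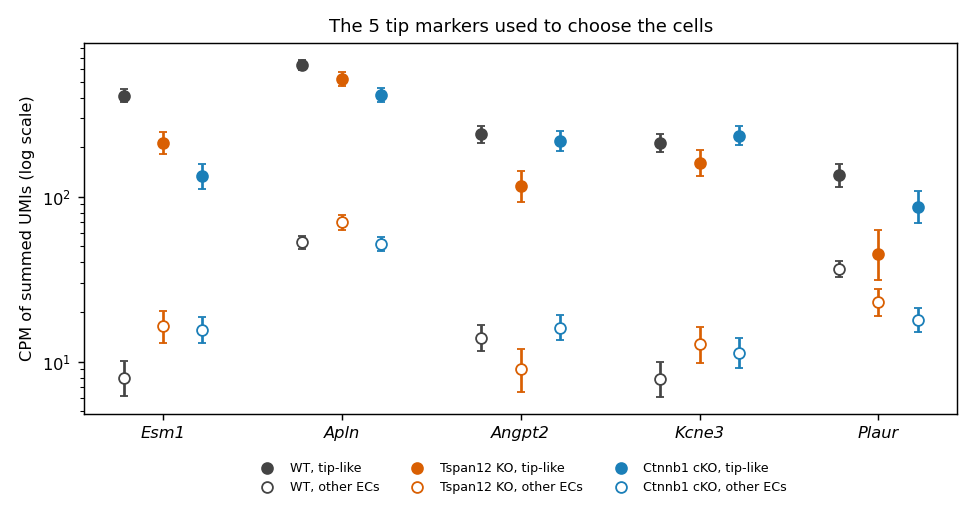
CPM on a log axis of the 5 markers of the rule, for each of the 3 libraries, in the summed tip-like cells (filled) and other ECs (open), with exact Poisson 95% intervals of the summed counts. The filled points lie above the open points for every marker because the rule chose the cells on them, and *Plaur* in the *Tspan12* KO library shows the smallest gap, 45.0 against 22.9 CPM.

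For the genes that the rule did not use, UMIs were summed over the tip-like cells and over the other ECs of each library, and 6789 genes with a mean of at least 20 CPM over the 6 sums were compared. A gene counts as past the fold where the log2 ratio of CPM plus 5 was at least 1 or at most -1. Log2 ratios printed for single genes come from the counts without that addition. In WT, 2.06% of the genes were past the fold upward and 4.11% downward. In the *Tspan12* KO library the shares were 1.05% and 2.33%, and in the *Ctnnb1* cKO library 1.19% and 2.96%. In all 3 libraries together, 34 genes (0.501%), 4 of them markers of the rule, were past the fold upward and 51 (0.751%) downward. With ECs that held markers of other cell types left out, these counts were 36 and 45.

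*Adm*, which encodes the vasoactive peptide adrenomedullin, led the genes outside the rule. It stood at 130 CPM in the tip-like cells of the WT library against 11.6 CPM in other ECs, at 38.4 against 2.19 CPM in *Tspan12* KO and at 75.8 against 8.99 CPM in *Ctnnb1* cKO. Its log2 ratios to other ECs were 3.49 (3.12 to 3.86), 4.13 (3.09 to 5.28) and 3.08 (2.59 to 3.57), and 25 of 38, 13 of 29 and 41 of 134 tip-like cells carried a UMI of it. *Adm* was thus high against other ECs in each library, although its level in *Tspan12* KO tip-like cells rested on 29 UMIs.

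*Ackr3*, a scavenger receptor that takes up the chemokine Cxcl12, had 50.3, 38.4 and 28.0 CPM in tip-like cells and 4.10, 4.19 and 6.49 CPM in other ECs. *Cxcl12* itself showed the reverse, with 9.37, 0 and 12.5 CPM in tip-like cells and 108, 61.6 and 122 CPM in other ECs. The receptor was therefore high where its ligand was low, with log2 ratios of 3.61 (2.99 to 4.25), 3.20 (2.34 to 4.08) and 2.11 (1.38 to 2.81) for *Ackr3*. For *Cxcl12* they were -3.52 (-4.53 to -2.68) in WT and -3.29 (-4.24 to -2.48) in *Ctnnb1* cKO, and in *Tspan12* KO, where none of the tip-like cells had a UMI, *Cxcl12* was at least 15.5-fold lower against a floor of 3 counts. *Cxcr4*, the signaling receptor of the same chemokine, had 92.9, 86.1 and 104 CPM in tip-like cells and 25.1, 46.8 and 46.6 CPM in other ECs.

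*Odc1*, the first enzyme of polyamine synthesis, rested on 768, 393 and 561 UMIs in tip-like cells. Its levels were 654 against 203 CPM, 521 against 155 CPM and 582 against 134 CPM, with log2 ratios of 1.69 (1.57 to 1.81), 1.75 (1.57 to 1.93) and 2.12 (1.97 to 2.27). *Mest*, an imprinted gene, had 550, 460 and 274 CPM in tip-like cells and ratios of 1.48, 1.48 and 1.45, the most even of the 10. *S100a6*, a calcium-binding protein, had 267, 962 and 602 CPM and ratios of 2.25, 1.91 and 1.32.

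The other 5 of the 10 genes with the highest minimum over the libraries were *Prr5*, a subunit of mTOR complex 2, *Chst1*, a sulfotransferase for keratan sulfate, *Kdelr3*, a receptor that returns proteins to the endoplasmic reticulum, *Kcnj2*, an inward-rectifier potassium channel, and *Oaf*. Their log2 ratios ran from 1.58 (*Oaf*, *Tspan12* KO) to 3.09 (*Kdelr3*, WT), and every interval lay above 0. They rested on 27 to 144 UMIs in tip-like cells, and 1 cell held up to 31.2% of the UMIs of a gene. Thinned to 2000 UMIs, *Prr5* and *Ackr3* in the *Tspan12* KO library turned to log2 ratios of -1.71 and -0.54 on the CPM plus 5 scale. They rested on 13 tip-like cells in which 1 UMI was worth 38.5 CPM, so the 5 CPM added weighed in these values.

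Among the 10 genes furthest below other ECs, *Gja4*, a connexin of arterial endothelium, had 46.0, 11.9 and 30.1 CPM in tip-like cells and 320, 184 and 137 CPM in other ECs. *Mgp*, matrix Gla protein, had 0, 17.2 and 18.7 CPM against 58.9, 121 and 410 CPM, so that it was at least 23.1-fold lower in WT. *Slc6a6*, the taurine transporter, was found at 18.7, 68.9 and 35.3 CPM against 458, 467 and 254 CPM. The log2 ratios of *Slc6a6* were -4.61 (-5.29 to -4.01), -2.76 (-3.19 to -2.36) and -2.85 (-3.38 to -2.36), and those of *Gja4* -2.80, -3.95 and -2.19. In the *Tspan12* KO library *Mgp* rested on 13 UMIs, 76.9% of them in 1 tip-like cell, and its ratio from raw counts was -2.82. Without ECs that held markers of other cell types, its ratio was -0.23 on the different scale of CPM plus 5.

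*Nkd1*, a target and inhibitor of Wnt signaling, stood out for its even ratios of -2.68 (-4.01 to -1.62), -2.73 (-3.55 to -2.02) and -2.72 (-4.17 to -1.58), on 7, 16 and 6 UMIs in tip-like cells. *Nebl*, an actin-binding protein, had 0, 1 and 3 UMIs in tip-like cells and 106, 25.3 and 33.2 CPM in other ECs, and was at least 41.4-fold lower in WT. *Lama3*, a laminin chain, and *Mfap2*, a protein of elastic microfibrils, completed the genes of this kind, with 2.56, 0 and 8.30 CPM and with 16.2, 27.8 and 25.9 CPM in tip-like cells.

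*Rgs5* and *Hbb-bs* were also among the 10, and they are a pericyte gene and a haemoglobin. In other ECs 30.4% of the WT *Rgs5* UMIs and 91.5% of the WT *Hbb-bs* UMIs came from 1 cell. Without ECs that held markers of other cell types, the *Rgs5* ratios on the CPM plus 5 scale were -0.01 in *Tspan12* KO and -0.83 in *Ctnnb1* cKO, and the *Hbb-bs* ratios were -0.26, -0.07 and 0.11 in WT, *Tspan12* KO and *Ctnnb1* cKO. The 8 mural markers summed to 19.6, 90.1 and 33.2 CPM in tip-like cells and to 106, 577 and 202 CPM in other ECs, and 0 tip-like cells against 3, 24 and 31 other ECs had at least 20 mural UMIs per 10000.

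**Figure D2:**
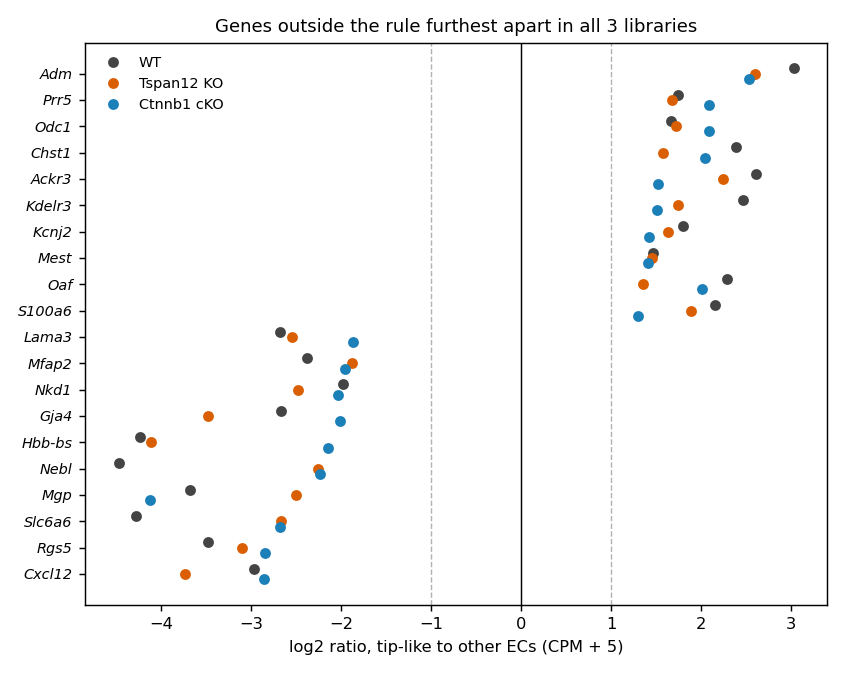
Log2 ratio of tip-like cells to other ECs (CPM plus 5) in the 3 libraries for the 10 genes outside the rule with the highest minimum and the 10 with the lowest maximum over libraries, with dashed lines at -1 and 1. All points of the upper 10 genes lie to the right of 1 and all points of the lower 10 to the left of -1, which the choice of these genes fixed, and *Adm* lies furthest to the right.

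Genes known from tip cells were then read as a list of 20, of which 19 passed the level limit and *Pgf* did not. Of these, 14 were above other ECs in all 3 libraries and 2 below, against 22.5% and 32.6% of all genes tested. These shares are the background for each such list count below. The median log2 ratio of the tip cell list was 0.72 for WT, 0.39 for *Tspan12* KO and 0.50 for *Ctnnb1* cKO. The medians over all genes were -0.07, -0.03 and -0.07. *Nid2*, a basement membrane protein, had 281, 171 and 221 CPM in tip-like cells against 113, 95.5 and 99.7 CPM. *Mcam*, an adhesion molecule, had 361, 220 and 197 CPM against 134, 135 and 113 CPM.

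*Dll4*, the Notch ligand of tip cells, differed less, with 156, 126 and 149 CPM against 106, 95.1 and 114 CPM and log2 ratios of 0.56 (0.32 to 0.79), 0.40 (0.07 to 0.72) and 0.39 (0.13 to 0.65). *Nrp1*, a VEGF co-receptor, had ratios of 0.73, 0.58 and 0.57. *Pdgfb*, the growth factor that recruits pericytes, had 380, 338 and 763 CPM in tip-like cells and 201, 194 and 447 CPM in other ECs. It was higher in tip-like cells of every library, and highest in both kinds of ECs in the *Ctnnb1* cKO library, whose recombinase is driven by *Pdgfb*. The part of the transgene in those counts was not tested.

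*Kdr*, the main VEGF receptor, was below other ECs in WT and had intervals across 0 in both knockout libraries. Its levels were 513 against 657 CPM in WT, 726 against 719 CPM in *Tspan12* KO and 562 against 525 CPM in *Ctnnb1* cKO, with ratios of -0.36 (-0.48 to -0.24), 0.01 (-0.12 to 0.14) and 0.10 (-0.03 to 0.23). *Igfbp3*, a binding protein of insulin-like growth factors, had 796, 768 and 1066 CPM in tip-like cells but 192, 259 and 1039 CPM in other ECs. In the *Ctnnb1* cKO library other ECs thus stood at the level of the tip-like cells, and the log2 ratio was 0.04 (-0.06 to 0.13) after 2.05 (1.93 to 2.17) in WT and 1.57 (1.42 to 1.71) in *Tspan12* KO.

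The rest of the VEGF, apelin and angiopoietin partners were mixed, with 3 of 9 tested members above other ECs in all libraries and 2 below. *Tek*, the receptor of *Angpt2*, was low in tip-like cells, at 101, 135 and 90.3 CPM against 286, 288 and 161 CPM, and *Vegfc*, a lymphangiogenic growth factor, stood at 15.3, 7.95 and 14.5 CPM against 76.9, 41.3 and 35.9 CPM. *Aplnr*, the receptor of *Apln*, had ratios of -0.66 (-0.89 to -0.43), -0.26 (-0.50 to -0.02) and 0.13 (-0.19 to 0.43). In the Notch list 3 of 9 tested members were above and 4 below in all libraries: *Notch1*, a receptor, had ratios of -0.46, -0.62 and -0.52, and the target *Nrarp* of 0.56, 0.46 and 0.04.

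Basement membrane genes divided by chain. The laminin chains *Lamb1*, *Lamc1* and *Lama4* were higher in tip-like cells, and *Lamb1* had 476, 400 and 394 CPM against 166, 177 and 142 CPM, with log2 ratios of 1.52 (1.37 to 1.66), 1.18 (0.98 to 1.37) and 1.47 (1.30 to 1.64). *Lamb2*, the alternative beta chain, had ratios of -1.02, -1.35 and -1.43 on 14, 10 and 18 UMIs. *Col4a1*, a collagen IV chain, had 2638, 2370 and 5353 CPM against 1707, 2161 and 3847 CPM, while *Col18a1*, the precursor of endostatin, had ratios of -0.62, -1.11 and -0.42. In the list as a whole 6 of 13 tested genes were above other ECs in all libraries and 3 below, with medians of 0.63, 0.13 and 0.46.

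Genes of matrix proteolysis and integrins showed no common direction, with 5 of 14 tested genes above other ECs in all libraries, 4 below and medians of -0.04, 0.07 and 0.30. *Mmp14*, a membrane-bound metalloproteinase, had 126, 82.1 and 166 CPM in tip-like cells against 60.1, 42.3 and 72.9 CPM, and log2 ratios of 1.07 (0.80 to 1.34), 0.96 (0.53 to 1.37) and 1.19 (0.93 to 1.44). *Timp2*, an inhibitor of metalloproteinases, had ratios of -1.62 (-2.96 to -0.55), -1.32 (-2.15 to -0.59) and -1.22 (-1.86 to -0.64). The protease was thus above and this inhibitor below other ECs in each library.

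The 14 genes of actin and filopodia all passed the level limit. Of these, 12 were above other ECs in all 3 libraries and 0 below, against 22.5% and 32.6% of all genes tested. The medians were 0.45, 0.42 and 0.65. *Fscn1*, which bundles actin in filopodia, had 470, 450 and 319 CPM against 237, 290 and 146 CPM. *Vim*, an intermediate filament protein, had 3442, 2150 and 2203 CPM against 1845, 1361 and 1305 CPM, with log2 ratios of 0.90, 0.66 and 0.76. *Myo10*, a motor of filopodial tips, differed less, with ratios of 0.41 (0.31 to 0.52), 0.31 (0.13 to 0.48) and 0.63 (0.49 to 0.77). None of the 14 reached the fold in all libraries, so this was a shift of many genes by a small amount.

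Glycolysis behaved alike. Here 11 of 13 tested enzymes and transporters were above other ECs in all libraries and 1 below, with medians of 0.43, 0.51 and 0.35. *Pkm*, pyruvate kinase, had 965, 974 and 691 CPM against 498, 541 and 398 CPM, and *Pfkp*, a phosphofructokinase, had ratios of 0.72, 1.17 and 1.27. The 1 gene below was *Slc2a1*, the glucose transporter of the barrier, at 413, 383 and 490 CPM against 759, 1021 and 1001 CPM. The transporter and most of the enzymes therefore stood on opposite sides, with ratios of -0.88 (-1.01 to -0.74), -1.41 (-1.59 to -1.24) and -1.03 (-1.17 to -0.90) for *Slc2a1*.

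In the hypoxia response 4 of 9 tested genes were above and 3 below other ECs in all libraries. Past the fold in all 3 were *Adm* and *Ankrd37* upward and *Ddit4* downward. *Ankrd37*, a target of hypoxia-inducible factor, had 92.0, 106 and 119 CPM in tip-like cells against 38.1, 42.1 and 44.9 CPM, with ratios of 1.27 (0.95 to 1.59), 1.33 (0.94 to 1.71) and 1.41 (1.09 to 1.72). *Ddit4*, a stress-induced inhibitor of mTOR complex 1 that hypoxia also raises, had 5.96, 9.27 and 29.1 CPM against 22.2, 30.3 and 118 CPM. Genes that respond to the same signal thus lay on both sides of other ECs.

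The promoters of the 2 upward genes of this list are printed as the 250 bases before the start of each gene, from RefSeq on GRCm38.p6, 5′ to 3′ on the strand of the gene. Capitals mark ACGTG, the core of the hypoxia response element, searched on both strands. *Adm* lies on the plus strand, chr7:110627407-110627656, and *Ankrd37* on the minus strand, chr8:45999851-46000100.
Adm: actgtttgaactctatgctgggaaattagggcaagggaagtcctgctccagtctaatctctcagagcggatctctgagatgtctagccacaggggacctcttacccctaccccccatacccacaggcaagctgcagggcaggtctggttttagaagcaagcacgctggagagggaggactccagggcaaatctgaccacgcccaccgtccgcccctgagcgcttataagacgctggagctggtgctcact
Ankrd37: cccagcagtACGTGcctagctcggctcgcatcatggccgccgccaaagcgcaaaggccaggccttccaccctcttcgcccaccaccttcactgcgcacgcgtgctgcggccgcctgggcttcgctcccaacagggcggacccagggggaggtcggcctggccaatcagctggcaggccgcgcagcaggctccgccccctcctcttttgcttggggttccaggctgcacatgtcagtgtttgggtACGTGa

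*Ankrd37* held 2 matches, which began 241 and 6 bases before the start, and *Adm* held 0 in this window. With 50 bases after the start included, ACGTG was present in 19.6% of 32851 promoters. It was present in 11 of the 15 promoters found for the hypoxia list (73.3%) and in 3 of the 13 found for the 10 highest genes (23.1%), namely those of *Kcnj2*, *Kdelr3* and *S100a6*. A match of 5 letters describes the sequence and is no site.

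The barrier and transport genes were the list with the most members below other ECs: 12 of 13 tested genes were below in all 3 libraries and 0 above. The medians were -1.31 for WT, -1.04 for *Tspan12* KO and -0.32 for *Ctnnb1* cKO. *Spock2*, a matrix proteoglycan, had 112, 46.4 and 118 CPM in tip-like cells against 574, 274 and 396 CPM. *Abcb1a*, the drug exporter P-glycoprotein, had 62.2, 80.8 and 138 CPM against 215, 220 and 292 CPM. Together with *Slco1a4*, an organic anion transporter that had 0, 5 and 14 UMIs, these genes were past the fold in all libraries.

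*Cldn5*, the main tight junction claudin, had 2794, 1472 and 1450 CPM in tip-like cells against 4284, 2323 and 1698 CPM, with ratios of -0.62 (-0.67 to -0.56), -0.66 (-0.75 to -0.57) and -0.23 (-0.31 to -0.15). *Mfsd2a*, a lipid transporter that limits transcytosis, had ratios of -1.31 (-1.62 to -1.01), -2.13 (-2.93 to -1.44) and -0.57 (-1.02 to -0.15). *Tfrc*, the transferrin receptor, was the gene outside the common direction, with 52.0, 35.8 and 21.8 CPM against 174, 48.4 and 17.2 CPM. Its ratio was -1.74 (-2.13 to -1.37) in WT and 0.34 (-0.40 to 1.01) in *Ctnnb1* cKO. In that library 7 of the 13 barrier genes were past the fold downward from WT in other ECs, against 7.03% of all genes tested, and 3 of 13 in tip-like cells, against 8.65%.

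The 6 fenestral and caveolar genes had medians of 0.43, 0.37 and 0.33, with 4 above other ECs in all libraries and 1 below. *Plvap*, the protein of fenestral diaphragms, had 123, 386 and 248 CPM in tip-like cells and 102, 274 and 334 CPM in other ECs. It was above other ECs in WT, by 0.27 (0.01 to 0.53), and in *Tspan12* KO, by 0.49 (0.31 to 0.68), and below them in *Ctnnb1* cKO, by -0.43 (-0.63 to -0.24).

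In the Norrin and beta-catenin pathway 10 of 13 tested genes were below other ECs in all libraries and 1 above, with medians of -0.65, -0.59 and -0.67. Among receptor components, *Fzd4* had ratios of 0.43, 0.47 and -0.35, *Lrp5* of -0.35, 0.15 and -0.54, *Lrp6*, a relative of *Lrp5*, of -0.45, -0.13 and -1.09, and *Tspan12* of -0.25, -0.42 and -0.20, and *Ctnnb1* had ratios of 0.05, 0.07 and 0.03. *Lrp6* and *Tspan12* were thus below other ECs in all libraries, although the *Tspan12* intervals crossed 0. *Lrp6* rested on 41 UMIs in WT and 39 in *Tspan12* KO tip-like cells. The latter level was 51.7 CPM (36.7 to 70.6), so its ratio of -0.13 was within counting error. *Apcdd1*, a secreted Wnt inhibitor, had 54.5, 57.0 and 44.6 CPM in tip-like cells against 201, 260 and 101 CPM, and *Lef1*, a transcription factor that binds beta-catenin, 139, 221 and 193 CPM against 304, 411 and 345 CPM.

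*Tnfrsf19*, a further Wnt target, had 7.67, 17.2 and 14.5 CPM against 43.1, 93.1 and 51.4 CPM, and with *Apcdd1* and *Nkd1* it was past the fold in all libraries. These targets were also below other ECs in the *Ctnnb1* cKO library, where the ratios of *Apcdd1*, *Tnfrsf19* and *Nkd1* were -1.18, -1.82 and -2.72. The letters CTTTGA, a core that Lef1 and its relatives bind, stood in 3 of the 17 promoters found for this list (17.6%) and in 16.0% of all promoters.

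Arterial genes had the lowest medians of the lists of endothelial genes, at -2.14, -1.29 and -1.40, with 8 of 9 tested genes below other ECs in all libraries and 0 above. Past the fold in all 3 were *Gja4*, *Mgp*, *Cxcl12* and *Stmn2*, and the last of these, a stathmin, is also a gene of neurons. *Sox17*, a transcription factor of arterial ECs and a member of the pathway list too, had 85.2, 62.3 and 88.2 CPM against 217, 172 and 143 CPM. *Hey1*, a Notch target, was the exception in WT, at 25.6 against 24.4 CPM.

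Of 6 tested venous genes 3 were below in all libraries and 0 above, with medians of -0.95, -0.30 and -0.42. *Nr2f2*, the transcription factor of venous identity, had ratios of -1.40 (-1.87 to -0.97), -1.18 (-1.74 to -0.67) and -0.92 (-1.60 to -0.32), while *Vwf*, von Willebrand factor, had 191, 90.1 and 90.3 CPM against 113, 61.8 and 137 CPM. The venous genes thus had no common direction, and *Vwf* lay above other ECs in WT and *Tspan12* KO and below them in *Ctnnb1* cKO.

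**Figure D3:**
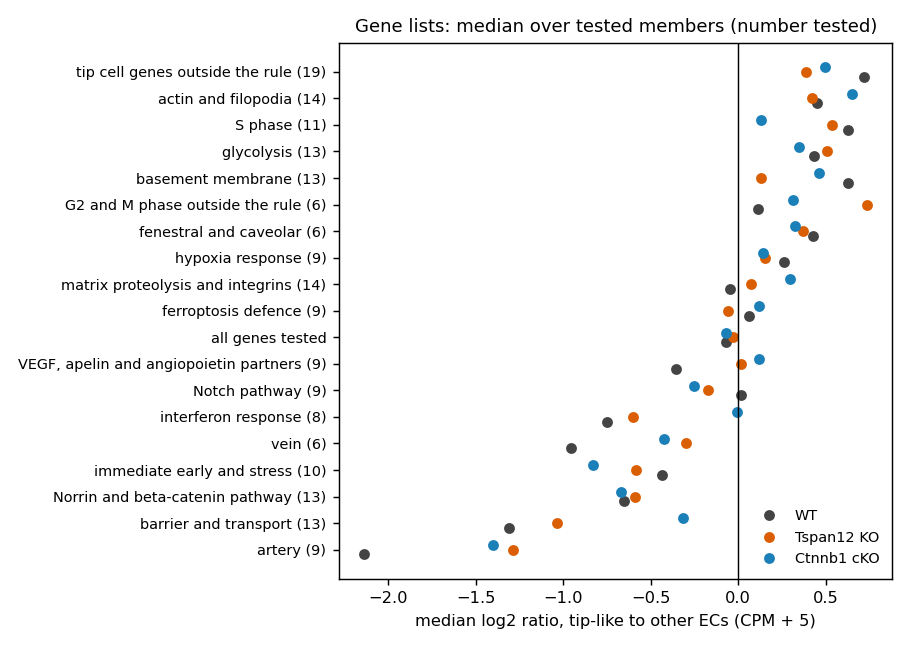
Median log2 ratio of tip-like cells to other ECs (CPM plus 5) for each gene list in the 3 libraries. The arterial list lies at -2.14, -1.29 and -1.40 and the barrier list at -1.31, -1.04 and -0.32, while the actin list lies at 0.45, 0.42 and 0.65.

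Cell cycle genes were read outside the 3 that set the mitotic limit. Of 11 tested S phase genes 7 were above other ECs in all libraries and 0 below, with medians of 0.63, 0.54 and 0.13. *Mcm5*, a subunit of the replicative helicase, had 36, 31 and 18 UMIs in tip-like cells and ratios of 1.08 (0.51 to 1.63), 1.23 (0.59 to 1.83) and 0.69 (-0.13 to 1.43). Of the genes of G2 and M phase 6 of 14 passed the level limit, 3 of them above other ECs in all libraries. *Kif11*, a mitotic kinesin, did not pass it, with 10, 5 and 4 UMIs. Part of the EC range over the mitotic limit also reached the tip gate: 32 of 200 ECs (16.0%, 11.2 to 21.8%) in WT, 25 of 114 (21.9%, 14.7 to 30.6%) in *Tspan12* KO and 39 of 507 (7.69%, 5.53 to 10.4%) in *Ctnnb1* cKO. After thinning, the shares were 7.26%, 10.9% and 4.12%.

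Immediate early and stress genes, which tissue dissociation is known to raise, were mostly below other ECs, with 8 of 10 tested genes below in all libraries and medians of -0.43, -0.58 and -0.83. *Egr1*, an immediate early transcription factor, had 441, 343 and 417 CPM against 789, 573 and 870 CPM. *Atf3*, a stress-induced transcription factor, was the 1 gene above, at 445, 80.8 and 143 CPM against 210, 48.8 and 106 CPM. Genes of ferroptosis defence were near other ECs, with medians of 0.06, -0.06 and 0.12. *Prdx1*, a peroxiredoxin, had ratios of 0.44 (0.35 to 0.53), 0.46 (0.36 to 0.56) and 0.26 (0.13 to 0.39), and *Gpx4*, which reduces lipid peroxides, of -0.13, -0.25 and -0.33.

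Interferon response genes had medians of -0.75, -0.60 and -0.01 against other ECs, with 1 of 8 tested genes above in all libraries and 4 below. *Ifitm3*, an antiviral membrane protein, had 450, 346 and 2387 CPM in tip-like cells and 801, 710 and 2484 CPM in other ECs. The tip-like cells were thus below other ECs in WT and *Tspan12* KO, and close to them in *Ctnnb1* cKO, where both were high.

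How the lists ran along the range of scores was read in bins of ECs by their summed marker score. The bins at 10 to 20 and at 20 or more held 11 and 8 cells in WT, 10 and 4 in *Tspan12* KO and 51 and 21 in *Ctnnb1* cKO, so the upper bins of the first 2 libraries held under 20 cells each. From the bin at 0 to the highest bin, the summed CPM of tip cell genes outside the rule went from 2912 to 6735 in WT, from 2545 to 7139 in *Tspan12* KO and from 4049 to 6870 in *Ctnnb1* cKO. Barrier genes went the other way, from 11074 to 2616, from 7437 to 2155 and from 4997 to 2030 CPM. Barrier genes were lower in each bin than in the bin before it in all 3 libraries, while tip cell genes had 1 step against the trend, from 4049 to 3916 CPM between the first bins of *Ctnnb1* cKO.

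Actin genes went from 32682 to 80529 CPM in WT, from 34534 to 59524 CPM in *Tspan12* KO, with 65306 CPM in the bin before the last, and from 26237 to 58236 CPM in *Ctnnb1* cKO. These sums weigh abundant genes most: *Tmsb4x* and *Actb* had 30699 and 9503 CPM in WT tip-like cells. The median log2 ratio of the actin genes between the highest bin and the bin at 0 was 0.91, 0.66 and 0.99. Arterial genes were lowest at 10 to 20 in WT and *Tspan12* KO, at 182 and 199 CPM, and in the highest bin in *Ctnnb1* cKO, at 227 CPM. *Adm* had 4.16, 2.62 and 7.59 CPM in the bin at 0 and 252, 121 and 179 CPM in the highest bin. Its level was thus highest in the cells with the highest marker scores in each library. Median depth differed between bins too, for example from 7448 UMIs at 0 to 40426 UMIs at 10 to 20 in WT, and its part in these values was not tested.

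**Figure D4:**
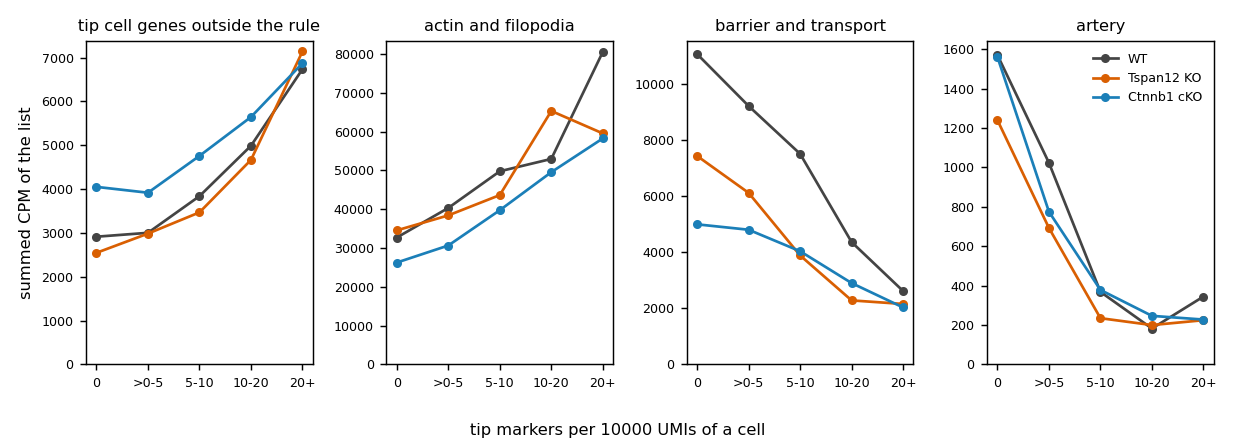
Summed CPM of tip cell genes outside the rule, actin, barrier and arterial genes (panels from left to right) in ECs binned by the summed marker score per 10000 UMIs, with a line for each library. Barrier genes go from 11074 to 2616 summed CPM between the lowest and highest bin in WT and from 4997 to 2030 CPM in *Ctnnb1* cKO, and the highest bins hold 8 and 21 cells.

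The knockout libraries were then set against WT within tip-like cells. Both comparisons use the same 38 WT cells and have no replicates, so their values are given side by side. In *Tspan12* KO 271 genes (3.99%) were past the fold upward and 138 (2.03%) downward, and in *Ctnnb1* cKO 324 (4.77%) and 587 (8.65%). With trimmed mean of M-values (TMM) scaling in place of library totals the numbers were 200 and 196 in *Tspan12* KO and 446 and 419 in *Ctnnb1* cKO, so the share upward went from 66.3% to 50.5% and from 35.6% to 51.6%. TMM moved the median over all genes from 0.06 to -0.08 and from -0.13 to 0.01.

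Interferon genes were higher in *Ctnnb1* cKO tip-like cells than in WT ones. Of 8 tested genes of the list 7 were past the fold upward, with a median log2 ratio of 3.36, and in other ECs 8 of 8 were, against 4.08% of all genes tested, with a median of 2.45. The same medians in *Tspan12* KO were 0.00 and -0.15. *Isg15*, a ubiquitin-like protein, had 6.81 CPM in WT tip-like cells, 6.62 CPM in those of *Tspan12* KO and 135 CPM in those of *Ctnnb1* cKO. *Xaf1*, a proapoptotic interferon target, had 7.67, 6.62 and 194 CPM.

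*Iigp1*, an interferon-induced GTPase, had 0 UMIs in the tip-like cells of WT and *Tspan12* KO and 84 UMIs in 33 of 134 *Ctnnb1* cKO cells, at least 34.1-fold higher than WT against a floor of 3 counts. *Oasl2*, a relative of the oligoadenylate synthetases, had 5.96, 6.62 and 126 CPM, and *Ifit1* and *Sp100*, both induced by interferon, had 2 and 3 UMIs in WT and 84 each in *Ctnnb1* cKO. Their log2 ratios to WT were 4.40 (3.31 to 5.74), 5.68 (3.78 to 8.75) and 5.09 (3.50 to 7.40). In other ECs these 3 ratios were 3.41, 4.38 and 3.59, so the interferon genes were high in ECs of this library in general. Microglial genes were higher in the same cells, with summed CPM of 135, 121 and 683 in the tip-like cells of WT, *Tspan12* KO and *Ctnnb1* cKO and of 149, 127 and 636 in other ECs, and their part in the interferon values was not tested.

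Several genes were lower in tip-like cells of both knockouts than in those of the shared WT library. A high value in that 1 WT library alone would also give this pattern, and the 2 readings cannot be told apart here. *Cxcl1*, a neutrophil chemokine, had 118, 2 and 5 UMIs in WT, *Tspan12* KO and *Ctnnb1* cKO, or 101, 2.65 and 5.19 CPM. *Lars2*, the mitochondrial leucyl-tRNA synthetase, had 216, 67.6 and 35.3 CPM. The median share of mitochondrial UMIs in tip-like cells also differed between these libraries, at 3.12%, 2.07% and 0.412%. In other ECs it was 3.91%, 2.30% and 0.377%. Its relation to the *Lars2* values was not tested. *Atf3* had 445, 80.8 and 143 CPM. The same genes were lower in other ECs too, where the log2 ratios to WT were -3.05 and -1.72 for *Cxcl1*, -1.04 and -2.49 for *Lars2* and -2.11 and -0.98 for *Atf3*.

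*Slc38a5*, a glutamine transporter of the barrier, had 121, 19.9 and 28.0 CPM in tip-like cells, with ratios to WT of -2.61 (-3.48 to -1.84) and -2.11 (-2.76 to -1.51). *Lpar4*, a receptor of lysophosphatidic acid, had 70.7, 25.2 and 8.30 CPM. *Apod*, a lipocalin, had 101, 6.62 and 72.6 CPM, its 5 UMIs in *Tspan12* KO all in 1 cell, and *Septin1*, a septin, had 56.2, 6.62 and 54.0 CPM. These 2 were low in *Tspan12* KO and near WT in *Ctnnb1* cKO.

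The highest genes of the *Tspan12* KO tip-like cells rested on few cells. *Kcnip4*, a neuronal potassium channel subunit, had 295 CPM against 6.81 CPM in WT, from 8 cells of which 1 held 48.4% of the UMIs, and its ratio in other ECs was 0.30. *Zfp804b* had 72.4% of its UMIs in 1 cell, *Cntnap5a*, a neurexin relative, 77.2%, and *Negr1*, a neuronal adhesion molecule, 51.8%. *Rgs5* had 36 UMIs against 3 in WT, 72.2% of them in 1 cell. Rod genes were higher in the same cells, with 6 of 6 tested past the fold upward, against 3.99% of all genes tested, and a median of 1.99. They summed to 438 CPM against 101 CPM in WT tip-like cells. In other ECs of this library 5 of 6 were past the fold upward from WT too, with a median of 1.09 and sums of 521 against 232 CPM. *Six3*, a transcription factor of the developing eye, had 6.81, 79.5 and 128 CPM in the tip-like cells of the 3 libraries and 20.9, 162 and 380 CPM in other ECs. In *Ctnnb1* cKO, *Kcnd3* and *Dcc*, both neuronal genes, were far below a WT value of which 89.2% and 87.7% came from 1 cell. The part of RNA from other cells in these values was not tested.

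The lists were also set against WT. Tip cell genes outside the rule had median ratios to WT of -0.29 for *Tspan12* KO and 0.15 for *Ctnnb1* cKO, barrier genes of -0.29 and -0.26, arterial genes of -0.42 and 0.05, and Norrin pathway genes of 0.42 and 0.03. In other ECs these medians were, in the same order, -0.05 and 0.07, -0.35 and -1.33, -0.53 and -0.17, and 0.23 and 0.09. Actin genes stood at -0.14 and -0.53, S phase genes at 0.26 and -0.81 and ferroptosis defence at -0.17 and -0.44 in tip-like cells. Other ECs had -0.05 and -0.69, 0.16 and -0.24, and 0.03 and -0.24 for the same lists. For the single genes that follow, the values are those of tip-like cells, and ratios to WT in other ECs are not given. *Plvap* had ratios of 1.65 (1.36 to 1.95) and 1.02 (0.71 to 1.32), *S100a6* of 1.85 (1.65 to 2.04) and 1.17 (0.97 to 1.37) and *Adm* of -1.76 (-2.39 to -1.18) and -0.78 (-1.21 to -0.37). *Prdx1* had ratios of 0.34 (0.22 to 0.47) and -0.82 (-0.96 to -0.67), *Gpx4* of -0.31 (-0.54 to -0.08) and -0.45 (-0.68 to -0.23), and *Kif11* of -0.36 (-2.26 to 1.32) and -1.04 (-3.16 to 0.76) on 10 or fewer UMIs.

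**Figure D5:**
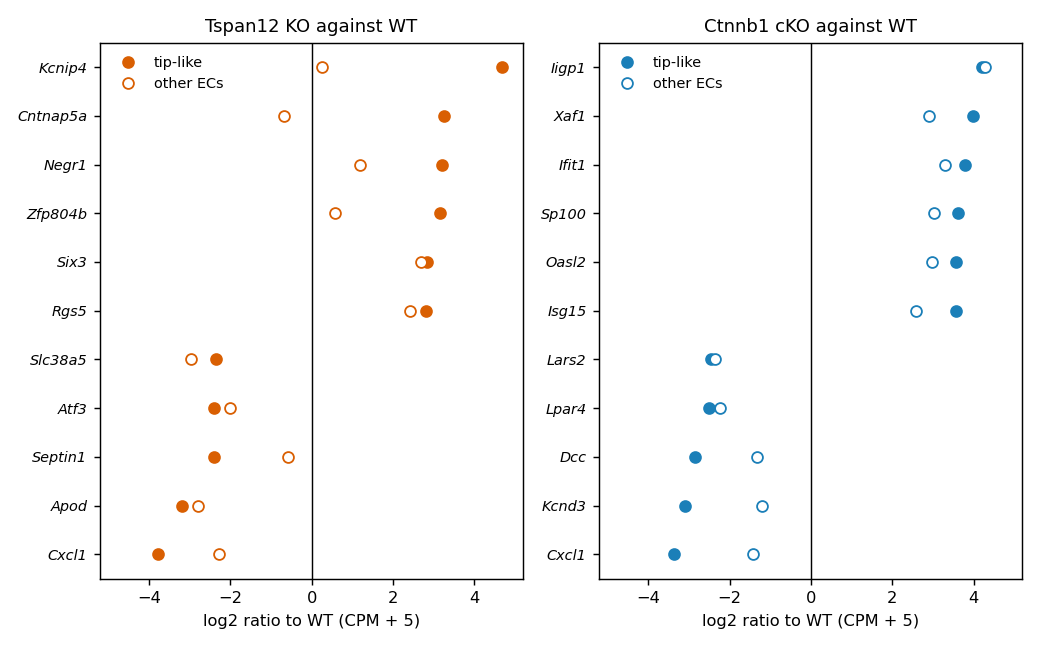
Log2 ratio to WT (CPM plus 5) in tip-like cells (filled) and other ECs (open) for named genes of each knockout library, the 6 furthest above and 5 of the 6 furthest below WT in tip-like cells. The interferon genes of the *Ctnnb1* cKO library are above WT in both kinds of ECs, while in the *Tspan12* KO library *Kcnip4* has raw count ratios of 5.44 in tip-like cells and 0.30 in other ECs.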

How the data were processed

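Single-cell 3′ libraries (10x Genomics) of pooled retinas were read from the deposited raw UMI counts per gene and barcode, a Cell Ranger output of the authors. Per the file headers the version was 8.0.1. Sources name mm10 and GRCm39 as the reference, and the build was not settled, so no gene coordinates are given other than RefSeq promoters (GRCm38.p6).

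Cells with under 1000 UMIs or over 15% mitochondrial UMIs were left out. UMIs were summed over tip-like cells and other ECs of each library and divided by the total, and genes with a mean of at least 20 CPM over the 6 sums, mitochondrial genes excepted, were compared against a fold of 2 with 5 CPM added. Ratios have exact conditional binomial intervals, CPM exact Poisson ones and shares Clopper-Pearson ones. They cover counting error only. With 1 library per genotype and members chosen on the same counts, no p-value is given. Named genes were the 10 with the highest minimum and the 10 with the lowest maximum over libraries, the 6 furthest each way from WT in each knockout (X-inactivation and Y-linked genes, haemoglobins and unnamed gene models left out), the 5 markers, the members of the gene lists, *Kif11*, *Tspan12*, *Ctnnb1*, *Prdx1* and *Gpx4*. Some genes that these rules name are not reported here. Doublets were kept, and Scrublet served as an alternative. The members, lists and rules were chosen with earlier results of these data known.

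The code for ratios was tested on simulated Poisson counts of the sums with known folds. Such counts have no spread between cells, so the test says nothing about that spread. Software was Python 3.11.15, numpy 2.4.6, pandas 2.3.3, scipy 1.17.1, scanpy 1.11.5, matplotlib 3.10.9, R 4.3.3 and edgeR 4.0.16, the last for TMM factors only. Alternatives were thinning to 2000 UMIs, other gates and level limits, TMM, another pseudocount, cell means and removal of doublets or ECs with other markers.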

Additional observations from a re-analysis of the deposited data

Results flagged for a closer look

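*Kcnip4* lay below other ECs in tip-like cells of WT, at -1.42 on the log2 scale of CPM plus 5, and of *Ctnnb1* cKO, at -0.72, and above them in *Tspan12* KO, at 2.99. *Cntnap5a* lay at -1.96 in WT, at 0.025 in *Ctnnb1* cKO and at 1.98 in *Tspan12* KO. The opposite directions in different libraries drew attention to both genes, the difference was not tested, and 1 tip-like cell of *Tspan12* KO held 48.4% and 77.2% of their UMIs.

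Cells outside the endothelial gate that passed the tip gate made up 0.828% (0.613 to 1.09%) of such cells in the *Ctnnb1* cKO library, or 49 cells, against 0.0342% in WT and 0.0358% in *Tspan12* KO. Of the 49, 47 were over the limit on microglial genes and 39 met the endothelial score. They belong to no comparison above. In the same library 756 cells with an endothelial score were over the microglial limit, against 7 in each of the other libraries.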

How the results depend on the processing

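No paired analysis was possible because each genotype had 1 library, and for the same reason none could be left out. The share of tip-like cells was 4.29%, 4.18% and 2.53% in WT, *Tspan12* KO and *Ctnnb1* cKO with a gate of 10 per 10000 and 3 markers, 9.33% in *Ctnnb1* cKO at 2000 or more UMIs, and 5.58% and 5.45% in *Tspan12* KO and *Ctnnb1* cKO in the first thinning. The 10 thinning draws, chosen after seeing the data, had medians of 6.43%, 5.64% and 5.53%. Genes past the fold upward in all 3 libraries numbered 88 with the strict gate and 15 at a mean of 50 CPM, and downward 110 after thinning, 128 with the strict gate, 32 without the mitotic limit and 32 at 50 CPM.

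Against WT, *Tspan12* KO tip-like cells had 1289 genes upward and 1719 downward after thinning, 102 and 76 without the mitotic limit, 92 and 69 at 50 CPM and 720 and 340 with no level limit. Upward genes numbered 166 without the cells scored highest by Scrublet, and downward genes 396 with the strict gate and 312 with cell means. *Ctnnb1* cKO had 1249 and 1539 after thinning, 167 and 328 at 50 CPM, 666 and 975 with no level limit, and 939 downward with the strict gate. After thinning, 27, 13 and 50 tip-like cells were left, and 1 UMI was worth 18.5, 38.5 and 10 CPM.

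Directions turned for *Prr5* (-1.71), *Ackr3* (-0.54) and *Mgp* (0.55) in *Tspan12* KO after thinning, for *Hbb-bs* there without the mitotic limit (0.0031) and for *Hbb-bs* in *Ctnnb1* cKO without ECs holding other markers (0.11). The causes were not tested. Of the other values of named genes 902 kept their direction and side of the fold and 17 kept the direction only. The 902 include 84 values at 50 CPM and 84 with no level limit, where the ratio of a gene could not change. Of the list medians 579 stayed on their side of the fold, 14 passed it and 1 no longer did. A change of sign short of the fold was not counted.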

Other observations

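Genes named here were chosen after their values were seen. *Irf8*, a transcription factor of myeloid cells, had 38.3, 43.7 and 47.7 CPM in the tip-like cells of WT, *Tspan12* KO and *Ctnnb1* cKO and 2.96, 7.38 and 18.2 CPM in other ECs, with log2 ratios of 3.69 (2.97 to 4.45), 2.57 (1.84 to 3.28) and 1.39 (0.88 to 1.88). *Lcp2*, an adaptor of blood cell signaling, had 67.3, 11.9 and 45.7 CPM against 4.56, 3.19 and 8.74 CPM, from 21, 4 and 31 tip-like cells. The list of 8 microglial markers, of which 6 passed the level limit, had median ratios of -0.09, -0.05 and 0.06 between the same cells. The rule had kept *C1qa*, *Cx3cr1* and *Csf1r* of that list low in both kinds of ECs, so these medians say little about microglial RNA. *Tyrobp*, a microglial adaptor, had ratios of 0.71 (-0.11 to 1.46), -0.08 (-1.46 to 1.08) and 0.20 (-0.12 to 0.51). The part of microglial RNA in the *Irf8* and *Lcp2* values was not tested.

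*Klf2* and *Klf4*, transcription factors that blood flow raises in ECs, were low in tip-like cells. *Klf2* had 514, 428 and 372 CPM against 1297, 1097 and 998 CPM in other ECs, and its log2 ratios of -1.34 (-1.46 to -1.22), -1.36 (-1.52 to -1.20) and -1.43 (-1.58 to -1.27) differed little between libraries. *Klf4* had 97.1, 99.4 and 87.2 CPM against 360, 204 and 238 CPM.

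*Aqp1*, a water channel, had 2 UMIs in the tip-like cells of WT and 2 in those of *Tspan12* KO, and 69.5 CPM in those of *Ctnnb1* cKO. In other ECs it had 6.61, 109 and 233 CPM. In the *Tspan12* KO library it was thus present in other ECs and nearly absent from tip-like cells, with a log2 ratio of -5.37 (-8.41 to -3.51).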
